A study of Mus musculus with 56 samples.

Results

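The tumours described here are 12 mouse liver tumours profiled by bulk RNA-seq. Their titles carry animal numbers that begin with either AL51 or AL54. All 12 were raised by hydrodynamic tail vein injection, which pushes plasmids into hepatocytes, in C57BL/6 mice, and all 12 received MYC together with nicd, the intracellular part of NOTCH that signals without ligand. The AL51 set holds 5 tumours, of which 2 carried lucOS and 3 carried luc. The AL54 set holds 7 tumours, of which 4 carried lucOS and 3 carried luc. The plasmid luc encodes luciferase, and lucOS encodes luciferase joined to model antigens that T cells can recognise. Members were taken as every tumour library with an AL51 or AL54 number, which gives 12 of the 26 bulk libraries and 12 of the 56 samples of the series. The others were 8 tumours labelled as male, 6 healthy livers and 30 samples not analysed here. The labels used here give neither an age nor a sex for the 12 tumours, and do not say what the number prefixes stand for: whether they mark a cohort, an injection day or a sequencing run cannot be told apart. Each title names a different animal number. The comparison asks whether the 2 sets, which share a protocol and both driver genes, differ in expression.

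MYC is a transcription factor that drives growth and ribosome production. NOTCH signalling works by cleavage of the receptor, after which its intracellular domain enters the nucleus and switches on genes such as Hes1, Nrarp and Sox9, and in the liver it favours the biliary over the hepatocyte fate. Interferons are secreted proteins that switch on antiviral genes and, for interferon gamma in particular, the antigen presentation machinery. This comprises the MHC class I chains and their peptide loading complex in nearly all cells, and MHC class II in cells such as macrophages.

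No gene differed between AL51 and AL54 tumours at the threshold. Values were TPM, which scale the transcripts of each library to a sum of 1000000, and were tested as log2(TPM + 1) with the construct as a term. Of 14784 genes tested with limma, 0 (0%) had an adjusted p under 0.05, and the smallest adjusted p was 0.303. At an unadjusted p under 0.05 there were 889 genes (6.01%), of which 685 (4.63%) were lower and 204 (1.38%) higher in AL51 tumours. The split depended on scaling: it was 603 lower and 369 higher after median ratio scaling, and 441 lower and 402 higher after quantile normalization. With the filter raised to 5 TPM, it was 436 lower and 178 higher, of 11731 genes tested. The median log2 fold change over all genes was -0.02, with 53.4% of genes negative. The median 95% interval, which is not adjusted for the number of genes, was 0.31 on either side of the estimate. To pass adjustment with these 12 tumours, a typical gene needed a larger difference than that. Even the gene Sgk1, at -0.96, had a limma adjusted p of 0.303. Values of AL51 and AL54 tumours did not overlap at all for 27 genes that were lower (0.183%) and 4 genes that were higher (0.0271%) in AL51 tumours. Among those lower, Stx11, Havcr2, Gzma and Tgtp2 were under 1 TPM in every AL51 tumour. They passed the filter on low values through AL54 tumours alone, which fixed their direction.

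**Figure D1:**
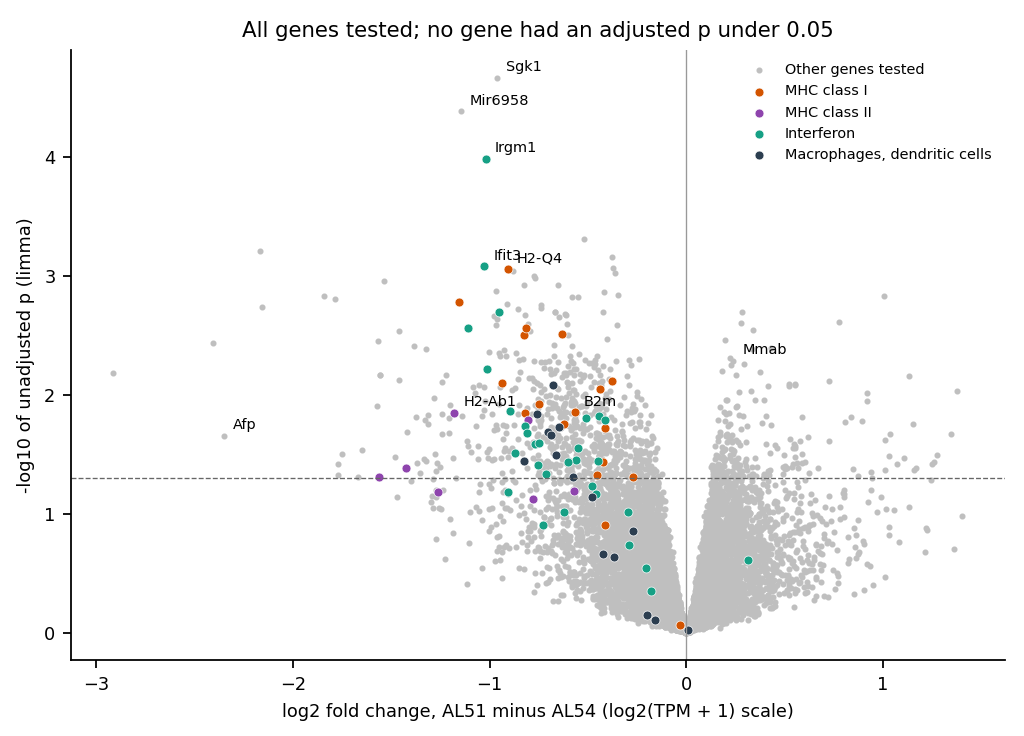
Each point is 1 of the 14784 genes tested, with the log2 fold change of AL51 minus AL54 tumours on the horizontal axis and the negative log10 of limma's unadjusted p on the vertical axis; the dashed line marks an unadjusted p of 0.05. Most coloured immune genes lie left of 0, and no gene passed after adjustment (smallest limma adjusted p 0.303).

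The 12 tumours differed among themselves far more than the sets did. Pairwise correlations of log2(TPM + 1) ran from 0.917 to 0.985 over 66 pairs, and their median was 0.950 for pairs of the same set and construct and 0.962 for pairs of the same construct from different sets. The first principal component (28.7% of variance) placed AL51 luc 3 at 38.8, AL51 lucOS 1 at 42.9 and AL54 lucOS 1 at 51.3, with the other 9 tumours at or below -1.34. Its largest positive loadings among genes with a symbol other than a clone or small RNA name were of Tcfl5, a germ cell transcription factor, Mafa, a beta cell transcription factor, and Esx1, a placental homeobox factor, followed by Amn, Cdh4 and Tubb2b, a neuronal tubulin. Tubb2b had 487 TPM in AL51 luc 3, 348 TPM in AL51 lucOS 1 and 193 TPM in AL54 lucOS 1, against 13.5 to 22.6 TPM in the other 9. Both sets and both constructs were thus present among the 3 tumours that stood apart. The second component (16.3%) had Alb, Fga and Hpx, all secreted hepatocyte proteins, at its low end, and did not follow the sets. On the third (13.6%) the 5 AL51 tumours lay between -19.5 and -7.78 and the AL54 tumours between -17.3 and 32.0, with AL54 luc 2 inside the AL51 range. TPM retain no sequencing depth, so no counting error can be given.

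**Figure D2:**
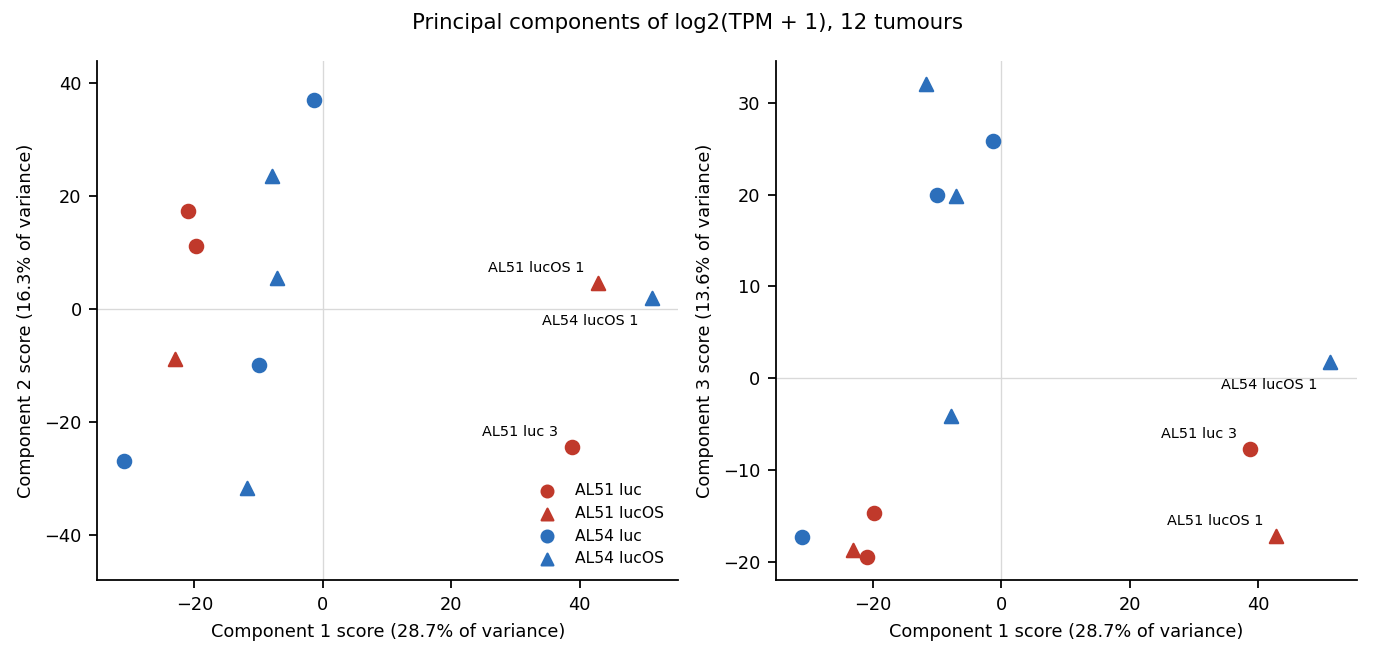
Scores of the 12 tumours on the first 3 principal components of log2(TPM + 1), with component 1 on both horizontal axes; colour gives the set and shape the construct. AL51 luc 3, AL51 lucOS 1 and AL54 lucOS 1 stand apart on component 1, and on component 3 all AL51 tumours lie at or below -7.78.

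One summary of the libraries passed its test. AL51 tumours had 17785 ± 154 genes above 0 TPM (SD, n = 5) and AL54 tumours had 18110 ± 202 (SD, n = 7), a difference of -315 genes within construct (exact permutation test over 300 arrangements, two-sided p = 0.00667, adjusted p = 0.02 over 3 measures). The ranges overlapped, at 17548 to 17918 genes in AL51 tumours and 17844 to 18385 genes in AL54 tumours. Counted above 1 TPM instead, the difference was -244 genes and did not pass (exact permutation p = 0.0867). The share of TPM in microRNA gene rows was 7.58 ± 0.787% in AL51 and 7.42 ± 0.696% in AL54 tumours, and the 50 most abundant genes took 23.01 ± 1.75% in AL51 and 22.6 ± 0.802% in AL54 tumours (SD, n = 5 and 7, adjusted exact permutation p = 0.72 for both). Sequencing depth, which sets how many genes are seen above 0, is unknown here and its part in the difference was not tested.

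The gene with the smallest p was Sgk1, a kinase that glucocorticoids, cell stress and growth factors induce (GRCm38.p6 chr10:21882184-21999903). It had 4.84, 4.43 and 4.91 TPM in AL51 luc tumours and 3.87 and 3.54 TPM in AL51 lucOS tumours, against 15.4, 10.9 and 9.99 TPM in AL54 luc tumours and 7.25, 5.44, 7.19 and 7.42 TPM in AL54 lucOS tumours. Every AL51 tumour was below every AL54 tumour. The log2 fold change was -0.96 (95% interval -1.27 to -0.65), and limma's adjusted p was 0.303. It was -1.17 among luc tumours and -0.73 among lucOS tumours.

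Irgm1, an interferon-induced GTPase that directs autophagy and defence against intracellular microbes (GRCm38.p6 chr11:48865245-48871420), had the third smallest p. AL51 tumours had 3.44, 3.52, 4.19, 2.80 and 6.12 TPM, against 9.09, 6.29, 7.68, 10.2, 8.64, 13.8 and 11.2 TPM in AL54 tumours. The sets did not overlap, although AL51 lucOS 2 at 6.12 TPM came close to AL54 luc 2 at 6.29 TPM. The log2 fold change was -1.02 (95% interval -1.41 to -0.63, limma adjusted p = 0.510). Ifit3, an antiviral interferon-induced protein, reached 1 TPM in AL51 luc 2 alone among AL51 tumours, so it needed AL54 tumours to pass the filter. It had 0.301 to 1.32 TPM in AL51 tumours and 1.36 to 3.34 TPM in AL54 tumours, with a log2 fold change of -1.03 and an adjusted limma p of 0.750. Trim25, an E3 ligase of the RIG-I antiviral pathway, had 15.5 to 19.2 TPM in AL51 tumours and 19.8 to 25.4 TPM in AL54 tumours, with a log2 fold change of -0.37 and the same adjusted p.

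The other protein-coding genes among the 15 smallest p-values were H2-Q4, Galnt11, Vamp5, Cd53 and Ctsh, and all 15 had negative log2 fold changes. Cd53, a membrane protein of leukocytes, had 2.31 to 4.06 TPM in AL51 tumours and 4.03 to 8.59 TPM in AL54 tumours, overlapping only at AL54 luc 2. Ctsh, a lysosomal protease, had 14.8 to 29.8 TPM in AL51 tumours and 28.5 to 42.6 TPM in AL54 tumours. Galnt11, a glycosyltransferase that acts on NOTCH1 among other proteins, had 13.6 ± 1.63 TPM in AL51 and 17.4 ± 1.30 TPM in AL54 tumours (SD, n = 5 and 7). The log2 fold changes were -0.77 for Cd53, -0.65 for Ctsh and -0.36 for Galnt11, each with an adjusted limma p of 0.750.

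**Figure D3:**
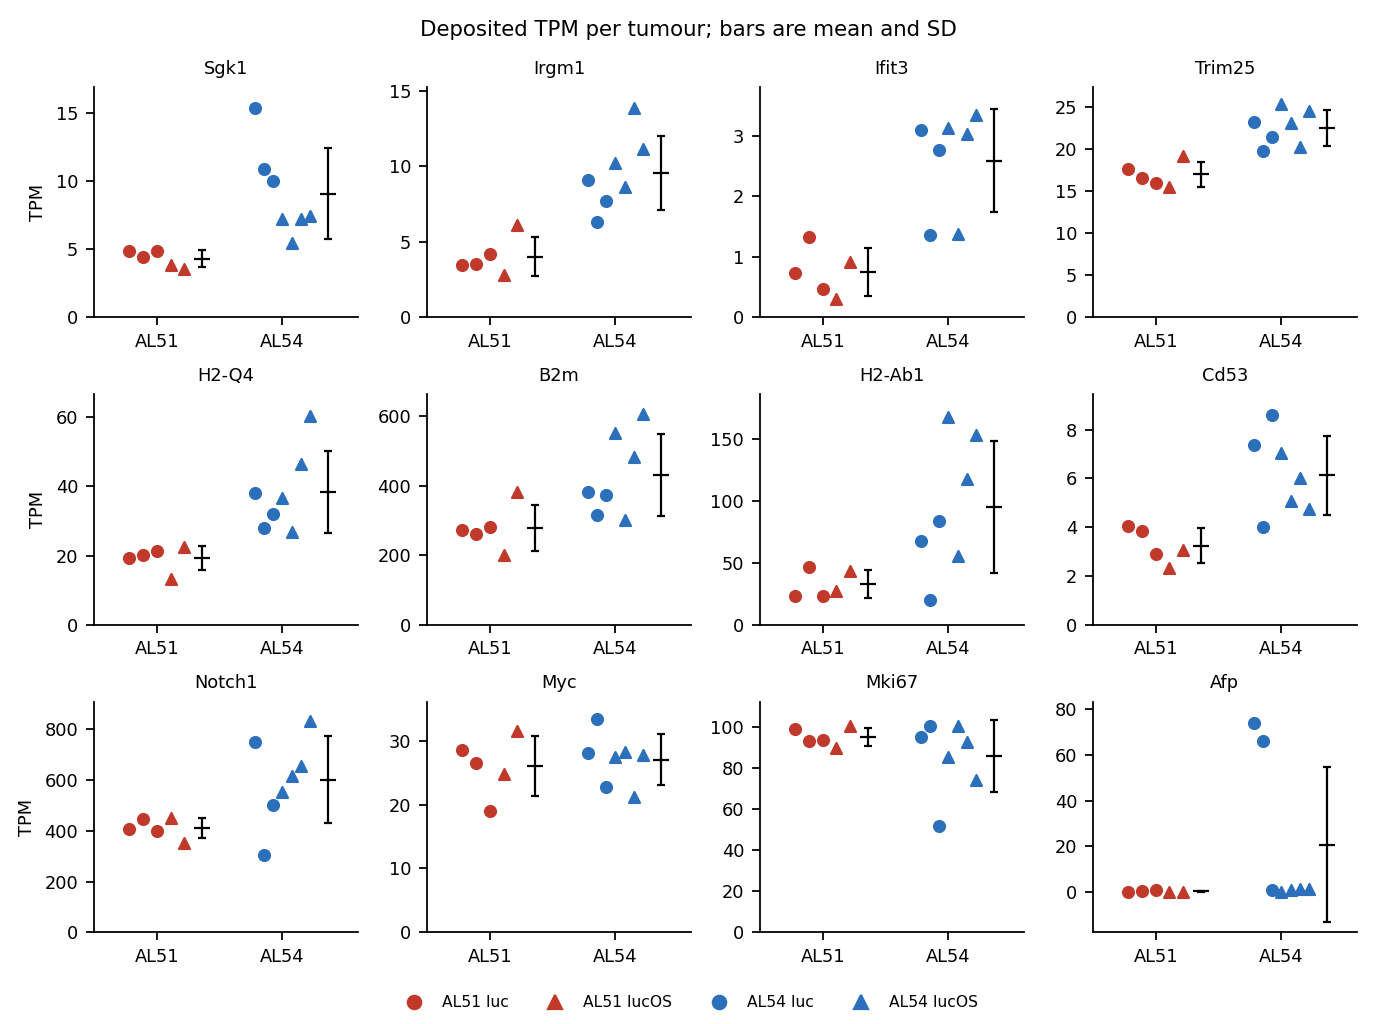
Deposited TPM of 12 genes in each tumour, AL51 in red and AL54 in blue, with circles for luc and triangles for lucOS; the black marks are the mean and SD of each set. Sgk1, Irgm1, Ifit3, Trim25 and H2-Q4 do not overlap between the sets, Myc and Mki67 do, and Afp is above 2 TPM in AL54 luc 1 and AL54 luc 2 alone.

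The promoters of Irgm1 and Ifit3, of the interferon genes above, and of B2m, the light chain of MHC class I, are shown because these genes lay lower together in AL51 tumours. They span 250 bases before to 50 after the start (RefSeq, GRCm38.p6), with capitals on each match to GAAA, any 2 bases and GAAA, the core of the element that interferon regulatory factors bind, searched on both strands. The Irgm1 promoter lies at chr11:48871371-48871670 on the minus strand and holds 2 overlapping matches, the Ifit3 promoter at chr19:34583279-34583578 on the plus strand holds 2, and the B2m promoter at chr2:122147437-122147736 on the plus strand holds 1.
Irgm1: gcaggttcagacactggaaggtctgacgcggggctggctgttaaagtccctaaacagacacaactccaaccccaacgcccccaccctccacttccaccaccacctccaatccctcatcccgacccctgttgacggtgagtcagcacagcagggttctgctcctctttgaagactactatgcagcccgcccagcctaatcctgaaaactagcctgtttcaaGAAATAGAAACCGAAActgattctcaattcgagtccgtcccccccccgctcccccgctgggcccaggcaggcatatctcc
Ifit3: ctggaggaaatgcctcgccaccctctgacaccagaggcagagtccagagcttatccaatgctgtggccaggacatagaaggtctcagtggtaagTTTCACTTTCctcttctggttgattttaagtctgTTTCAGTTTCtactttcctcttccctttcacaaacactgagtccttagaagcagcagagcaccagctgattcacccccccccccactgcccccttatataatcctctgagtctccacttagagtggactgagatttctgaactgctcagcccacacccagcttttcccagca
B2m: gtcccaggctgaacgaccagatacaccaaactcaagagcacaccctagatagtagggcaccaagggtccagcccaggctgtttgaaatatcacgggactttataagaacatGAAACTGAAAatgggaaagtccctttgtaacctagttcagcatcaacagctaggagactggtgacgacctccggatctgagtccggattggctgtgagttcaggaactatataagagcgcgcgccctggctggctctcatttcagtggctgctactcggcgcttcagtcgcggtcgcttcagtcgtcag

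A match is found in 1131 of 32851 promoters of this length (3.44%), or for 1079 of 27025 genes (3.99%). Among genes tested that have a promoter in the table, it was found for 8 of 12 interferon gamma genes, 7 of 11 type I interferon genes and 4 of 15 MHC class I genes. The interferon lists hold genes known to respond to interferons, so these shares do not bear on the difference between the sets, whose cause was not tested. Sgk1 had a match in 1 of its 6 promoters, and H2-Q4, Trim25, Cd53, Galnt11 and Vamp5 had none in these windows.

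MHC class I and its peptide loading genes lay lower in AL51 tumours without passing adjustment. All 18 of its 18 members passed the filter on low values, all 18 had negative log2 fold changes, and 16 had an unadjusted p under 0.05, against 4.63% of all genes tested; none passed after adjustment (smallest adjusted p 0.750). The median log2 fold change was -0.59, against -0.02 for all genes. In bulk tissue, fewer cells of a type and less RNA per cell cannot be told apart. H2-Q4, a class I chain of the Qa region (GRCm38.p6 chr17:35379617-35384674), had 19.4, 20.1, 21.4, 13.3 and 22.4 TPM in AL51 tumours, against 38.0, 28.1, 32.0, 36.6, 26.8, 46.5 and 60.4 TPM in AL54 tumours, without overlap. Its log2 fold change was -0.91 (95% interval -1.35 to -0.46). Reads of H2-Q4, H2-Q6, H2-Q7, H2-K1 and H2-D1 can be shared between near-identical copies, so single members of this family are uncertain.

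B2m, which is a single gene, had 199 to 382 TPM in AL51 tumours and 302 to 605 TPM in AL54 tumours, with a log2 fold change of -0.57 and an adjusted limma p of 0.750. AL51 lucOS 2, the highest AL51 tumour, was level with AL54 luc 1 at 383 TPM and above AL54 luc 2, luc 3 and lucOS 2. Psmb8, a subunit of the immunoproteasome that cuts peptides for loading, had 6.09 to 15.8 TPM in AL51 tumours and 13.3 to 39.4 TPM in AL54 tumours, a log2 fold change of -1.15. Tap2, part of the peptide transporter, had 19.7 ± 4.04 TPM in AL51 and 36.1 ± 8.82 TPM in AL54 tumours (SD, n = 5 and 7), a log2 fold change of -0.81. Nlrc5, the activator of class I transcription, was at -0.62, and H2-K1 and H2-D1, the classical class I heavy chains, were both at -0.41.

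MHC class II pointed the same way with a wider spread. Of 10 members 7 passed the filter; all 7 were negative, with a median log2 fold change of -1.18, and 4 had an unadjusted p under 0.05. H2-Ab1, a class II beta chain, had 23.5 to 46.5 TPM in AL51 tumours and 20.4 to 169 TPM in AL54 tumours, and the lowest of all 12 was AL54 luc 2. Its log2 fold change was -1.18 (95% interval -2.07 to -0.29, limma adjusted p = 0.750). Cd74, the invariant chain that guides class II assembly, had 10.8 to 73.2 TPM in AL51 tumours and 29.0 to 241 TPM in AL54 tumours, with a log2 fold change of -1.26.

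Interferon-induced genes had lower values in most AL51 tumours as well, and none passed after adjustment. In the type I interferon list, 15 of 19 members passed the filter, 15 were negative, 9 had an unadjusted p under 0.05, and the median log2 fold change was -0.60. Irf7, the transcription factor that amplifies interferon production, had 1.58 to 4.43 TPM in AL51 tumours and 3.48 to 10.4 TPM in AL54 tumours, a log2 fold change of -0.95. Isg15, a ubiquitin-like modifier, had 5.12 to 7.42 TPM in AL51 tumours and 3.43 to 26.6 TPM in AL54 tumours, and AL54 luc 2 was the lowest tumour of all. In the interferon gamma list, 15 of 17 passed, 14 were negative, 11 had an unadjusted p under 0.05, and the median was -0.73. Gbp2, a GTPase that attacks vacuoles of pathogens, had 0.924 to 2.25 TPM in AL51 tumours and 2.06 to 9.84 TPM in AL54 tumours, a log2 fold change of -1.11. Socs1, an inhibitor of interferon signalling, was at 0.31 (limma adjusted p = 0.885). Cd274, which encodes PD-L1, had 1.11 ± 0.209 TPM in AL51 and 2.16 ± 0.750 TPM in AL54 tumours (SD, n = 5 and 7), with a log2 fold change of -0.51 and an adjusted limma p of 0.758.

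Markers of macrophages and dendritic cells moved with these genes, and their part in the result was not tested. Of 18 members 15 passed the filter, 14 were negative and 8 had an unadjusted p under 0.05, and the median was -0.58; the summed level of all 18 was 308 to 483 TPM in AL51 tumours and 371 to 889 TPM in AL54 tumours. Csf1r, the receptor that macrophages need to survive, had 7.07 to 11.9 TPM in AL51 tumours and 8.54 to 22.2 TPM in AL54 tumours, a log2 fold change of -0.68. C1qa, a complement subunit made by macrophages, had 40.9 to 62.9 TPM in AL51 tumours and 54.8 to 136 TPM in AL54 tumours, at -0.76. Cd163, a haemoglobin scavenger receptor, was at 0.01. Kupffer cell markers had 8 of 9 members tested, a median of -0.47, and 3 at an unadjusted p under 0.05: Clec1b, Slc40a1 and Nr1h3. Clec4f, the marker most particular to Kupffer cells, had 1.03 to 6.67 TPM in AL51 tumours and 0 to 19.4 TPM in AL54 tumours, and was at -0.28.

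Lymphocyte markers were near the floor in both sets. Cd3e, the T cell receptor subunit that defines T cells, had 0 to 0.0855 TPM in AL51 tumours and 0 to 0.775 TPM in AL54 tumours, and Cd8a had 0.0338 to 0.510 TPM in AL51 tumours and 0 to 1.36 TPM in AL54 tumours, so neither passed the filter. Of 20 T and NK cell markers found, 7 passed, and 2 of them (Thy1 and Gzma) had an unadjusted p under 0.05. Thy1 is also a member of the stellate cell and fibroblast list. The median of the 7 was -0.38. That median was -0.059 without AL54 lucOS 1, -0.17 without AL54 lucOS 4, -0.21 without AL54 lucOS 3 and -0.22 without AL54 luc 3, and it turned to 0.068 over the members with at least 5 TPM in at least 4 tumours. The summed level of all 20 was 17.1 to 20.6 TPM in AL51 tumours and 18.3 to 40.6 TPM in AL54 tumours. Gzma, a granzyme of cytotoxic cells, had 0 to 0.280 TPM in AL51 tumours and 0.295 to 3.22 TPM in AL54 tumours; it passed the filter through AL54 tumours alone. Foxp3, the regulatory T cell factor, had 6.31 to 6.86 TPM in AL51 tumours and 4.06 to 8.22 TPM in AL54 tumours, levels that Cd3e and Cd4 did not share. Of 21 chemokines 12 passed, 5 had an unadjusted p under 0.05 and lower values, and the median was -0.51. Cxcl16, which attracts T and NKT cells, had 5.25 to 9.76 TPM in AL51 tumours and 10.2 to 20.2 TPM in AL54 tumours without overlap, at -0.74 (limma adjusted p = 0.750). The other 3 immune lists had no member at an unadjusted p under 0.05. Of 16 monocyte and neutrophil markers 5 passed the filter, with a median of -0.33, of 11 B and plasma cell markers found 2 passed, with a median of -0.07, and of 12 mast cell and platelet markers 4 passed, with a median of -0.34.

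Over these 11 immune lists together, 108 different genes were tested, 98 had negative log2 fold changes, and 58 (53.7%) had an unadjusted p under 0.05 and lower values in AL51 tumours, against 4.63% of all genes; none had one with higher values. The filter fixes the direction of genes that passed through AL54 tumours alone: 7 of the 108 were under 1 TPM in every AL51 tumour, and among the other 101 the count was 55. Genes at 1 TPM or more in only some AL51 tumours, such as Ifit3, can also have needed AL54 tumours to pass. These remain among the 101. The lists were chosen with earlier results known, so these counts are a description. These genes are expressed by shared cells and respond to shared signals, so they are not independent observations. The count rested in part on 1 tumour. Without AL51 lucOS 1, members at an unadjusted p under 0.05 and lower numbered 8 of MHC class I, 0 of MHC class II, 3 of type I interferon, 3 of interferon gamma and 2 of macrophages and dendritic cells, while the medians were -0.44, -0.66, -0.41, -0.50 and -0.50. Without the 3 tumours that stood apart on the first component, the same counts were 9, 0, 3, 3 and 1 and the medians -0.51, -0.35, -0.38, -0.50 and -0.41. Leaving out an AL54 tumour moved some counts too. The MHC class II count, 4 of 7, was 7 without AL54 luc 2 or lucOS 2 and 2 without AL54 luc 3, lucOS 1, lucOS 3 or lucOS 4, or without AL51 luc 3. The type I interferon count was 4 without AL54 luc 1 and 5 without AL54 luc 3, and the macrophage and dendritic cell count was 5 without AL54 luc 1 or lucOS 3 and 3 without AL54 luc 3. The mean log2(TPM + 1) of the MHC class I list was 4.24, 4.23, 4.35, 3.95 and 4.47 in AL51 tumours, against 4.88, 4.40, 4.82, 5.16, 4.56, 5.16 and 5.15 in AL54 tumours, so the sets overlapped only where AL51 lucOS 2 exceeded AL54 luc 2.

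**Figure D4:**
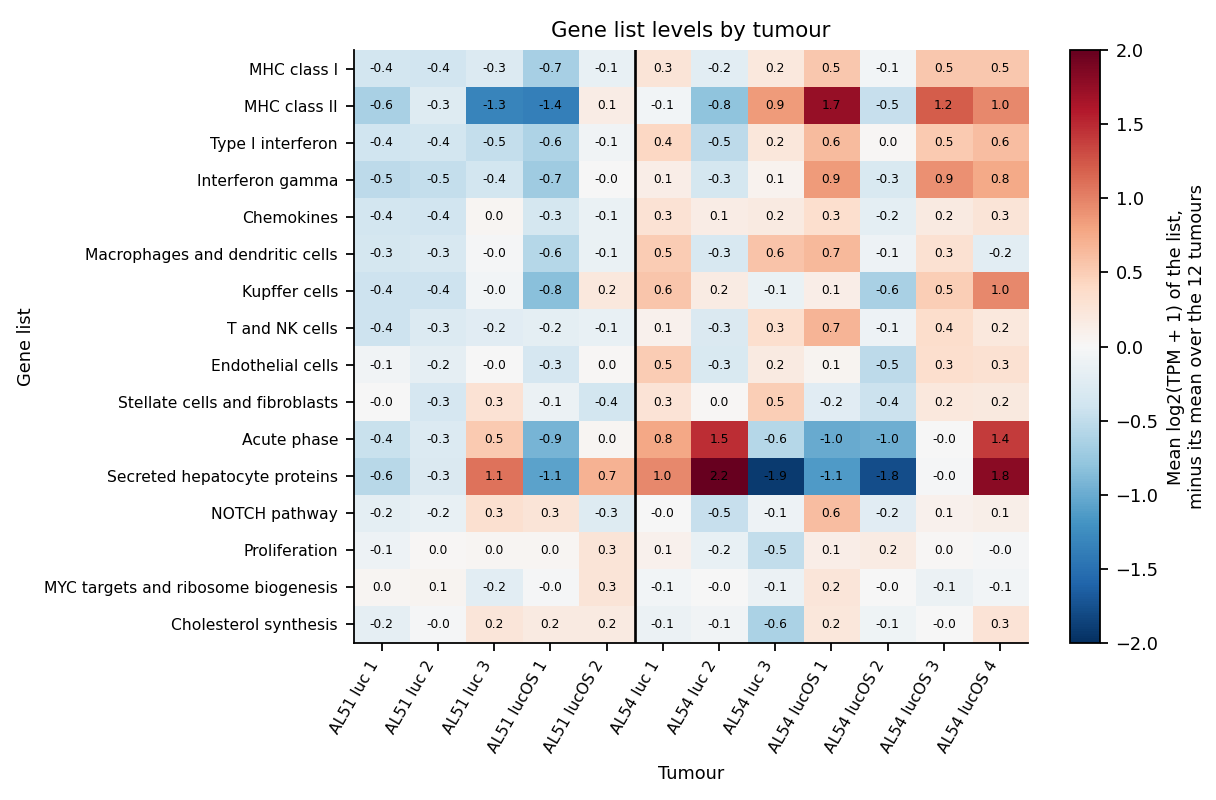
Mean log2(TPM + 1) of 16 gene lists in each tumour, minus the mean of that list over the 12 tumours, with AL51 tumours left of the black line and AL54 tumours right of it. The MHC, interferon, macrophage, and T and NK lists are below their mean in AL54 luc 2 and in all AL51 tumours. The exception is MHC class II in AL51 lucOS 2. MHC class I is below its mean in AL54 lucOS 2 as well. Kupffer and chemokine lists are above their mean in AL54 luc 2, and secreted hepatocyte proteins vary within both sets.

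None of the driver genes or their readouts passed after adjustment. Myc had 26.1 ± 4.66 TPM in AL51 and 27.0 ± 3.99 TPM in AL54 tumours (SD, n = 5 and 7, log2 fold change -0.05, 95% interval -0.35 to 0.25, limma adjusted p = 0.967). Whether reads of the injected MYC and nicd plasmids are counted in the Myc and Notch1 rows is not given in the sources used here. Notch1 had 352 to 449 TPM in AL51 tumours and 305 to 831 TPM in AL54 tumours, at -0.45 (95% interval -0.90 to -0.01, limma adjusted p = 0.822). AL54 luc 2 lay below every AL51 tumour, and all other AL54 tumours lay above every AL51 tumour. Nrarp, a direct target of NOTCH that dampens the pathway, was among the more abundant transcripts in all tumours, with 1564 ± 89.5 TPM in AL51 and 1434 ± 146 TPM in AL54 tumours and a log2 fold change of 0.13. Hes1, the classical NOTCH target, was at -0.13 and Sox9, the biliary transcription factor, at 0.26, with 4.43 to 15.5 TPM in AL51 tumours and 2.93 to 20.7 TPM in AL54 tumours for Sox9. The value of Sox9 joins opposite directions, 1.08 within luc and -0.67 within lucOS, neither of which passed adjustment. Of 20 NOTCH pathway genes tested, 12 were negative and 1 (Notch1) had an unadjusted p under 0.05.

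Proliferation genes had small positive values. All 20 were tested, 1 was negative, 0 had an unadjusted p under 0.05, and the median log2 fold change was 0.11. Mki67, the standard marker of cycling cells, had 95.1 ± 4.40 TPM in AL51 and 85.6 ± 17.5 TPM in AL54 tumours (SD, n = 5 and 7), a log2 fold change of 0.19 with a 95% interval of -0.14 to 0.52, and the lowest tumour was AL54 luc 3 at 51.8 TPM. Without that tumour the list's median was 0.04. MYC targets and ribosome biogenesis genes had a median of 0.05 and cytosolic ribosomal proteins one of -0.05, each with 0 members at an unadjusted p under 0.05.

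Hepatocyte genes varied within each set by more than between them. Alb, the main plasma protein, had 309 to 1484 TPM in AL51 tumours and 134 to 3267 TPM in AL54 tumours, with a log2 fold change of 0.00 and a 95% interval of -1.87 to 1.88. Secreted hepatocyte proteins had 17 of 22 members negative and a median of -0.17, with 0 at an unadjusted p under 0.05; their median was -0.35 among luc tumours and 0.11 among lucOS tumours. Leaving out 1 tumour turned its sign: it was 0.26 without AL54 luc 2 and -0.67 without AL54 luc 3. Acute phase genes, which inflammation induces in hepatocytes, had 19 of 20 negative and a median of -0.45, with Cebpd and Socs3 at an unadjusted p under 0.05. That median was -0.13 without AL54 luc 2 and -0.17 without AL54 lucOS 4. Krt19, a cytokeratin of biliary cells, had 72.0 to 148 TPM in AL51 tumours and 93.5 to 324 TPM in AL54 tumours, at -0.97 (limma adjusted p = 0.778). It was the lowest of 15 biliary and progenitor markers tested, of which 10 were negative, with a median of -0.10. That median was 0.44 within luc, with 2 members negative, and -0.67 within lucOS, with 14 negative.

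The largest fold change among the genes named here belonged to Afp, the fetal liver protein used as a marker of liver cancer. AL51 tumours had 0.216, 0.558, 0.896, 0.115 and 0.235 TPM, against 74.0, 65.9, 0.981, 0.291, 0.893, 1.32 and 1.37 TPM in AL54 tumours. AL54 luc 1 and AL54 luc 2 were thus far above the other 10 tumours of both sets. Every AL51 tumour was under 1 TPM, so Afp passed the filter through AL54 tumours alone, which fixed its direction. The log2 fold change was -2.35 (95% interval -4.30 to -0.40, limma adjusted p = 0.807), and it was -3.81 within luc and -0.71 within lucOS. Without AL54 luc 3, Afp alone passed the threshold within luc (log2 fold change -5.53, limma adjusted p = 0.000164) and in the difference between constructs (limma adjusted p = 0.0108), with 2 AL54 luc tumours left. Igf2, an imprinted fetal growth factor, had 1908 to 3499 TPM in AL51 tumours and 1727 to 3443 TPM in AL54 tumours, and H19, the noncoding RNA of the same domain, was at 0.21.

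Cholesterol synthesis genes had mostly positive values, while fatty acid synthesis genes had values of both signs. Of 20 cholesterol synthesis genes 18 had positive log2 fold changes, with a median of 0.16, and 3 (Stard4, Fdft1 and Lss) had an unadjusted p under 0.05, against 1.38% of all genes for higher values. The median was 0.28 within luc and 0.05 within lucOS, and over both constructs it was 0.075 without AL54 luc 3. Stard4, a cholesterol carrier, had 39.5 to 60.5 TPM in AL51 tumours and 18.8 to 44.6 TPM in AL54 tumours, at 0.55 (limma adjusted p = 0.750). Of 20 fatty acid synthesis genes 17 passed the filter and 12 were negative, against 53.4% of all genes. Their median was -0.10, with -0.03 within luc and 0.09 within lucOS. Acacb, an acetyl-CoA carboxylase, and Srebf1, a transcription factor of lipid synthesis, had an unadjusted p under 0.05 with lower values, at -0.49 and -0.29. After median ratio scaling or quantile normalization, 0 members of this list were lower at an unadjusted p under 0.05. Fasn, fatty acid synthase, was the 1 member with an unadjusted p under 0.05 and higher values, with 91.3 to 102 TPM in AL51 tumours and 73.6 to 94.9 TPM in AL54 tumours, at 0.25 (limma adjusted p = 0.750). The 4 genes with all AL51 values above all AL54 values were Med25, a Mediator subunit, Mmab, an enzyme of cobalamin metabolism that shares its promoter region with the cholesterol synthesis gene Mvk, Sh3pxd2b, an adaptor of invasive adhesions, and Cfl1, an actin-severing protein; they were chosen after their values were seen. Mmab had 22.5 to 25.2 TPM in AL51 tumours and 17.8 to 21.7 TPM in AL54 tumours, at 0.24 (limma adjusted p = 0.750).

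Among stress and stromal genes, the members named here were chosen after their values were seen. Hmox1, the haem-degrading enzyme, had 24.7 to 35.1 TPM in AL51 tumours and 30.8 to 103 TPM in AL54 tumours, at -0.98 (limma adjusted p = 0.750), while the NRF2 target list it belongs to had a median of -0.09. Fth1, the ferritin heavy chain that stores iron, had 340 to 420 TPM in AL51 tumours and 425 to 590 TPM in AL54 tumours, without overlap. Angptl4, a fasting-induced inhibitor of lipoprotein lipase, was at -0.78. Col1a1, the main fibrillar collagen, had 34.6 to 64.2 TPM in AL51 tumours and 41.9 to 150 TPM in AL54 tumours, at -0.74 (limma adjusted p = 0.828), and Acta2, smooth muscle actin, ran the other way at 0.59. Stellate cell and fibroblast markers had a median of -0.23 and endothelial markers one of -0.17.

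**Figure D5:**
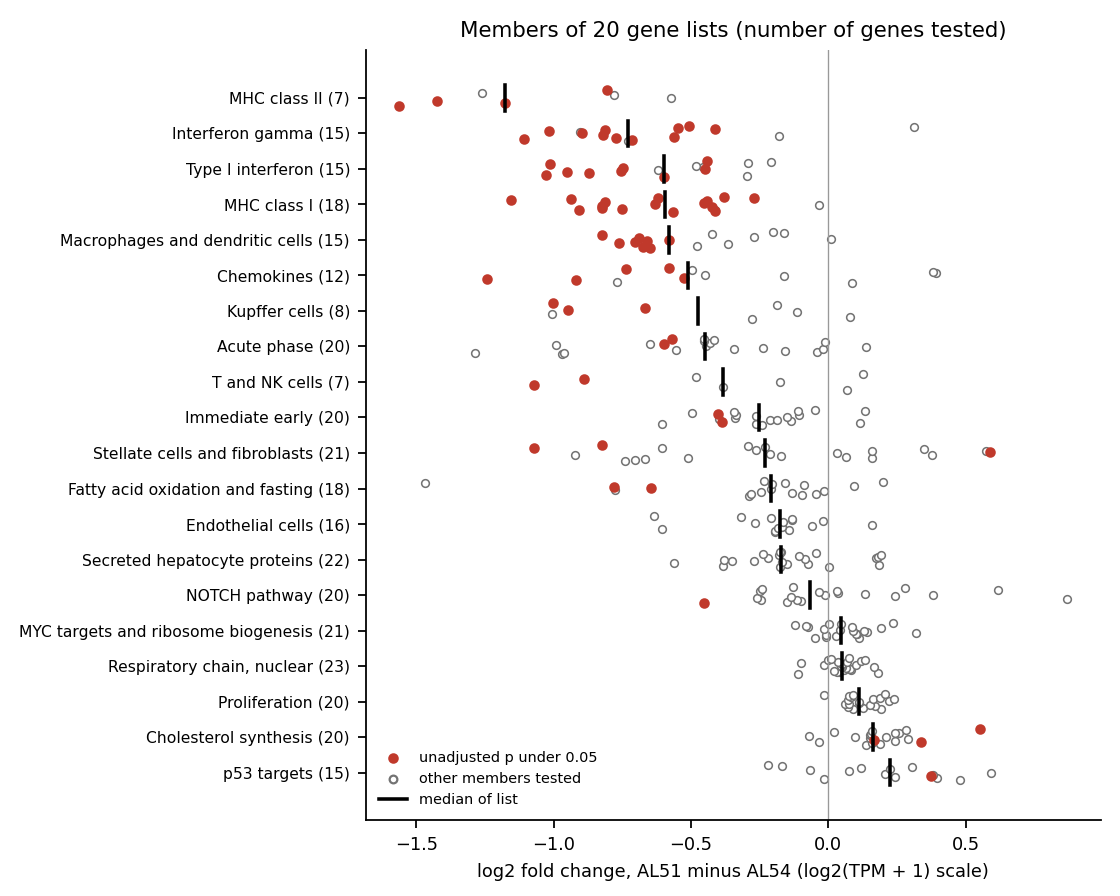
Log2 fold changes of AL51 minus AL54 tumours for the members of 20 gene lists; each point is a gene tested, filled where its unadjusted p was under 0.05, and the black bar is the list's median. The 4 lowest medians belong to MHC class II, interferon gamma, type I interferon and MHC class I, and the highest shown, 0.23, to p53 targets.

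Outside the 11 immune lists and the acute phase list, 37 lists held 532 different genes tested. Of these, 19 (3.57%) were lower and 10 (1.88%) higher in AL51 tumours at an unadjusted p under 0.05, near the shares of all genes (4.63% lower and 1.38% higher). Their medians ran from -0.58, for 3 lung epithelium genes, to 0.45, for Xist and Tsix. Xist, the noncoding RNA made from the inactive X chromosome, had 98.9 to 189 TPM in AL51 tumours and 97.1 to 159 TPM in AL54 tumours, and Ddx3y, a Y-linked gene, had at most 0.0529 TPM in AL51 and 0.164 TPM in AL54 tumours. Nnt, which carries a deletion in the C57BL/6J substrain and is intact in C57BL/6N, had 26.9 to 35.3 TPM in AL51 tumours and 25.4 to 34.4 TPM in AL54 tumours.

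Of the 15 smallest p-values, 6 belonged to small RNA genes. The mature forms of the 4 microRNA genes are shown to identify them, though reads in such rows need not come from the mature microRNA. Sequences are from RefSeq (GRCm38.p6), with the seed, bases 2 to 8, in capitals. The 7 mature microRNAs have 7 different seeds.
mmu-miR-6958-5p: gUGGGAGAagaggcugcugugg
mmu-miR-6958-3p: uCAGCUGCcucuugccaucacag
mmu-miR-7014-5p: uUGGGUGCuguggaagggacag
mmu-miR-7014-3p: cCUCUUUCauaccaaccacag
mmu-miR-25-5p: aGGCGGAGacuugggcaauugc
mmu-miR-25-3p: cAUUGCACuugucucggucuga
mmu-miR-3074-5p: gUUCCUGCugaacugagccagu

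Mir6958 (GRCm38.p6 chr15:89185465-89185537) had 9.25, 7.25, 5.48, 8.23 and 5.05 TPM in AL51 tumours, against 12.1, 12.4, 14.8, 23.5, 18.2, 21.1 and 21.4 TPM in AL54 tumours, without overlap. Its log2 fold change was -1.15 (95% interval -1.54 to -0.75, limma adjusted p = 0.303). It lies within the span of Dennd6b, which was at -0.30. Mir7014 had 0 to 3.81 TPM in AL51 tumours and 3.49 to 19.1 TPM in AL54 tumours, at -2.16, within the span of Ecm1, an extracellular matrix protein, which was at -0.64. Mir25, of the cluster inside the replication gene Mcm7, had 8.77 to 17.4 TPM in AL51 tumours and 13.7 to 40.7 TPM in AL54 tumours, at -0.88, whereas Mcm7 was at -0.02. Mir3074-1 was at -1.53 and the gene around it, Aopep, at -0.38. Both small nucleolar RNAs, which guide chemical modification of ribosomal RNA, did not overlap between the sets: Snord96a, inside Rack1, was at -0.52 and Snora64, inside Rps2, at -0.38, while Rack1 was at -0.06 and Rps2 at 0.06. The adjusted limma p was 0.750 for each of these small RNA genes other than Mir6958. A gene's row can hold reads of the gene around it, and the counting rule for such overlaps is not given in the sources used here.

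Tested within each construct, the comparison also gave no gene at an adjusted p under 0.05 (0% in either). Within luc, 3 AL51 against 3 AL54 tumours had 302 genes at an unadjusted p under 0.05 (2.04%), 221 of them lower (1.49%) and 81 higher (0.548%), and the smallest adjusted limma p was 0.817. Within lucOS, 2 AL51 against 4 AL54 tumours had 456 (3.08%), 366 of them lower (2.48%) and 90 higher (0.609%), and the smallest adjusted limma p was 0.293. The MHC class I median was -0.43 within luc and -0.70 within lucOS, with 17 and 18 of 18 members negative, and the interferon gamma median was -0.50 within luc and -1.03 within lucOS. The difference between the constructs itself, tested as an interaction, gave 0 genes (0%), 138 at an unadjusted p under 0.05 (0.933%; 94 negative, 0.636%, and 44 positive, 0.298%), and a smallest adjusted limma p of 1.00. For lucOS against luc in the same fit, 0 genes (0%) had an adjusted limma p under 0.05 and 910 (6.16%) an unadjusted one, of which 473 (3.2%) were higher and 437 (2.96%) lower in lucOS tumours.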

How the data were processed

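RNA of each tumour was extracted with Trizol, treated with DNase I, cleaned on RNeasy columns and made into TruSeq libraries, per the labels' protocols. TopHat2, featureCounts, DESeq2 and the build mm10 are named in the submitters' processing notes, without roles or versions. The authors deposited 1 table of TPM, with 24063 gene rows that sum to 1000000 in each of 26 bulk libraries; neither the depth nor the rule for overlapping genes is stated in the labels or headers. Left out were 27 rows whose names a spreadsheet had turned into dates and 2 rows sharing a name, together at most 0.27% of TPM. Of 24034 rows kept, 22617 matched a current and 1222 an older symbol of RefSeq (GRCm38.p6).

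Genes with at least 1 TPM in at least 4 of the 12 libraries were tested as log2(TPM + 1) with limma 3.58.1 in R 4.3.3 (trend and robust variance, 9 residual degrees of freedom), with construct and set as terms, p-values adjusted by Benjamini-Hochberg over all genes. Fold changes on this scale understate the change of low genes. A fit of 4 groups gave the comparison within each construct and the interaction. The labels give each tumour its own animal number; p-values measure the spread between these tumours. Library measures were tested by exact permutation within construct. Genes were named as the 15 with the smallest p plus 17 driver, liver and immune genes; examples from lists were taken by small p or by role after their values were seen. Members, tests and the 50 gene lists (830 of 856 entries found) were chosen with earlier results of these data known, so the lists are described by counts and medians without tests. The fit was tested on simulated data. Alternatives changed the pseudocount, filter, scaling, weights, variance model, libraries and terms, 1 at a time.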

Additional observations from a re-analysis of the deposited data

Results flagged for a closer look

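In 7 cases 1 tumour lay far from the others of its group, by Dixon's criterion at the 95% level; 99 groups were examined, and chance flags about 1 in 20 groups. AL51 lucOS 1 had 13.3 TPM of H2-Q4, against 19.4 to 22.4 TPM in the other AL51 tumours, and 4.24 TPM of Mir3074-1, against 12.5 to 15.9 TPM. AL54 lucOS 2 had 5.44 TPM of Sgk1, against 7.19 to 7.42 TPM in the other AL54 lucOS tumours, and 1.38 TPM of Ifit3, against 3.03 to 3.34 TPM. AL54 lucOS 1 had 151 TPM of Hes1, against 45.7 to 55.8 TPM in the other AL54 lucOS tumours and 36.8 to 55.8 TPM in the other AL54 tumours of both constructs. AL54 lucOS 3 had 21.2 TPM of Myc, against 27.5 to 28.3 TPM in the other AL54 lucOS tumours. AL51 lucOS 1 and AL54 lucOS 1 are 2 of the 3 tumours that stood apart on the first principal component.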

How the results depend on the processing

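No paired analysis was possible because the titles number each animal separately and give the sets no shared replicate numbers. The comparison of AL51 with AL54 tumours gave 0 genes at an adjusted p under 0.05 in limma under every alternative run. The smallest limma adjusted p of a run went from 0.0674, without AL54 luc 2, to 0.998, with all 20 tumours in the fit. Genes at an unadjusted p under 0.05 numbered 626 to 1344 when 1 tumour was left out, against 889; they were 1270 without AL54 luc 2, 1344 without AL54 lucOS 1, 1747 with array weights and 561 with all 20 tumours in the fit. Single calls appeared in the smaller comparisons: 1 gene within lucOS with a pseudocount of 0.1 (Mir6956), and with no filter on low values 1 within luc (Mir7047), 1 within lucOS (Syce3) and 1 in the interaction (Mir7047). Leaving out 1 tumour gave 0 to 1 within luc and in the interaction, the 1 being Afp without AL54 luc 3. Each of these but Afp was at 0 TPM in all tumours of 1 of the groups compared. The difference in genes above 0 TPM was -404 to -226 with 1 tumour left out; counted above 1 TPM it was -244. That in the microRNA share was -0.188 to 0.533 percentage points and that in the 50 most abundant genes -0.151 to 0.999.

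Leaving out 1 tumour turned the sign of near-zero log2 fold changes: Myc -0.14 to 0.047, Alb -0.62 to 0.47, Xist -0.056 to 0.16, Igf2 -0.25 to 0.017, Hes1 -0.30 to 0.051 and Nnt -0.0039 to 0.13. With array weights Myc was 0.047 and Alb -0.11, and without the 3 tumours apart on the first component, an alternative chosen after seeing the data, Myc was 0.11 and Alb -0.024; the cause was not tested. Without those 3 tumours, lower members at an unadjusted p under 0.05 numbered 9 in MHC class I, 0 in MHC class II, 3 in type I interferon, 3 in interferon gamma and 1 in macrophages and dendritic cells. With all 20 tumours in the fit they numbered 8, 4, 5, 6 and 4, and after quantile normalization 14, 3, 4, 9 and 5. Leaving out 1 tumour turned the sign of the median for 17 of 49 gene lists, 1 of them among the 11 immune lists (B and plasma cells). The counts rest on 5 and 7 tumours, and the depth behind each TPM is unknown.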
